A study of Homo sapiens with 27 samples.

Results

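Ephrins and the Eph receptors that bind them were followed in human endothelial cells kept alone or exposed to stromal cells. The 10 genes described were chosen by symbol: the ephrins EFNA1, EFNA4, EFNA5, EFNB1 and EFNB2, and the receptors EPHA2, EPHA4, EPHB2, EPHB3 and EPHB4. The choice was made with earlier results of these data known. All 10 were found among the 60604 gene entries used, and 12 more genes of the family were counted alongside them. RNA sequencing covered 27 libraries of EA.hy926 cells, a hybrid of umbilical vein endothelium and lung carcinoma cells, so each result comes from 1 hybrid line and not from primary endothelium. The exposures came from ASC52telo, a telomerase-immortalised adipose line of mesenchymal stromal cells (MSCs), and lasted 48 h. Control cells met no MSCs. The young ECM and senescent ECM groups were seeded on the matrix that MSCs left behind after a 5 min wash in 0.5% Triton X-100 and 20 mM NH4OH. Young CM and senescent CM cells received equal parts of their own and of MSC-conditioned medium. Young and senescent co-culture cells shared a dish with equal numbers of MSCs. Young MSCs were untreated, and senescent MSCs had been given the DNA crosslinker mitomycin C (1.5 µg/mL for 18 h) and then kept for 10 days. There were 4 libraries a group but 3 for senescent co-culture, which lacks replicate 1. All cells are labelled wild type. The cell type given for every library is endothelial, although the extraction protocol speaks of RNA from MSCs.

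Eph receptors are receptor tyrosine kinases, and ephrins are their ligands, held on the surface of neighbouring cells. EphA receptors mostly bind the lipid-anchored ephrin-A proteins and EphB receptors the transmembrane ephrin-B proteins, with EphA4 binding both. Because both partners sit in membranes, contact between cells sends a signal into each of them, and the usual response is a change of adhesion or repulsion. In vessels, ephrin-B2 marks arteries and its receptor EphB4 marks veins, while ephrin-A1 is induced by inflammatory cytokines and signals through EphA2 in angiogenesis.

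Library totals ran from 66320519 to 111512357 counts. Replicate 1 stood apart, so results rest on replicates 2 to 4 of each group (21 libraries, n = 3 a group) and replicate 1 is given separately. In replicate 1 of control, both ECM and both CM groups, 14 stromal marker genes summed to 5874 to 10440 CPM (counts relative to the TMM-scaled library total), against 80.3 to 169 CPM in replicates 2 to 4 of those groups, where 10 of the 14 averaged at least 1 CPM. Replicate 1 of young co-culture held 27.6% of its counts in 86 ribosomal protein genes, against 5.68% to 12.3% in the other 26 libraries. Of 13 endothelial markers, 11 averaged at least 1 CPM in every group, while CLDN5 and EMCN were at or near 0. The endothelial sum ran from 1923 to 2541 CPM in control and from 3738 to 4299 CPM over both co-cultures. Epithelial markers summed to 2062 to 2528 CPM in control, 1071 to 1347 CPM on matrix, 3510 to 5369 CPM in conditioned medium and 3292 to 4631 CPM in co-culture, with CDH1 at or near 0. Stromal markers in co-culture summed to 283 to 390 CPM with young and 454 to 530 CPM with senescent MSCs. Haematopoietic markers stayed at or below 0.253 CPM in replicates 2 to 4, and smooth muscle markers at or below 33.8 CPM. The labels do not say that endothelial cells were separated from MSCs, so RNA of either cell could be in the co-culture libraries. In bulk RNA, fewer cells of a type and less RNA per cell cannot be told apart. Whether replicates came from separate cultures is not stated, so the p-values speak only of the spread among libraries, and that spread could be technical.

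Receptors led the family. Per kilobase of annotated exon, EPHA2 had the highest median level over the 21 libraries, 53.6 CPM per kb (29.2 to 83.4). EPHB4 followed at 13.1 (7.48 to 42.3) and EPHB2 at 9.23 (5.19 to 14.1) CPM per kb. The most abundant ephrin was EFNA4, at 5.77 CPM per kb (3.07 to 9.33), ahead of EFNB1 at 3.71 (1.99 to 7.44). EPHA4 reached 3.04 CPM per kb (1.98 to 5.18). EFNA1 lay much lower at 0.476 CPM per kb, but over a wide range, from 0.104 to 2.47. EFNA5 stood at 0.125 CPM per kb. EFNB2 (0.0101) and EPHB3 (0.00592) were close to absent, with 2 to 14 and 0 to 13 counts per library. Among the other 12 family genes, EFNA3 (1.60 CPM per kb), EPHA5 (0.682), EFNA2 (0.250) and EPHA1 (0.0590) had counts enough to be tested, and the remaining 8 had medians at or below 0.00417 CPM per kb. Of the vascular pair, the arterial ligand EFNB2 was thus near the floor, while its venous receptor EPHB4 was the next most abundant member after EPHA2.

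**Figure D1:**
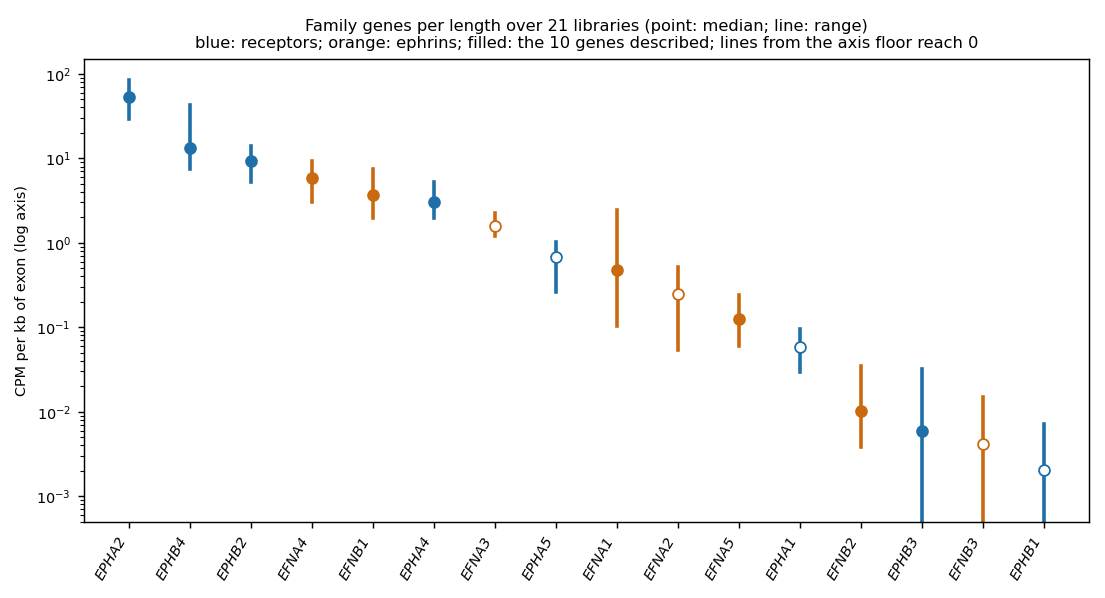
Levels of family genes per kilobase of exon (log axis, CPM per kb) over the 21 libraries of replicates 2 to 4, in order of their medians; points are medians and lines run from the lowest to the highest library. EPHA2 leads at a median of 53.6 CPM per kb, and EFNB2 and EPHB3 lie near the bottom at 0.0101 and 0.00592; 6 genes with a median of 0 are not drawn.

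EFNA1 (ENSG00000169242.12, GRCh38 chr1:155127460-155134857, plus strand) encodes ephrin-A1 and gave the largest fold changes from control among the 8 members tested, in each of the 6 exposures. In control replicates 2, 3 and 4 it stood at 0.785, 1.009 and 0.830 CPM. On young matrix it read 0.265, 0.380 and 0.328 CPM, and on senescent matrix 0.323, 0.376 and 0.429 CPM. Every matrix library lay below every control library. Young conditioned medium gave 1.34, 1.17 and 1.21 CPM, and senescent conditioned medium 1.80, 2.27 and 3.43 CPM. Young co-culture gave 4.41, 6.27 and 4.32 CPM, and senescent co-culture 4.62, 3.99 and 3.49 CPM. The groups thus ran, from low to high, as matrix, control, young medium, senescent medium and co-culture, and of neighbouring groups in that order only the 2 matrix groups and the 2 co-cultures overlapped. Counts behind these levels were 24 to 44 per library on matrix and 248 to 740 in co-culture.

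Relative to control, ephrin-A1 transcripts fell by 1.43 ± 0.26 on the log2 scale on young matrix (SE; n = 3 and 3; edgeR quasi-likelihood test, adjusted p = 0.0204). EFNA1 was the 1 member of 8 tested that passed the threshold of 0.05 there, where 0.649% of all genes passed (117 genes, and 321 with a replicate block, under which EFNA1 kept its call). On senescent matrix the difference was -1.21 ± 0.26 and missed the threshold (edgeR adjusted p = 0.0613), where 0.3% of all genes passed and no member did. DESeq2 and 4 other alternatives called it (adjusted p from 0.00522 to 0.0285). The call on young matrix rested on several libraries: adjusted p was 0.117 and 0.0893 when young ECM replicate 2 or 4 was left out, and 0.0617 and 0.0868 when control replicate 3 or 4 was, with log2 fold changes from -1.46 to -1.31. With replicate 1 included it was -1.03 (adjusted p = 0.918).

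In conditioned medium of senescent MSCs, EFNA1 rose by 1.52 ± 0.24 on the log2 scale over control, from 0.875 ± 0.119 to 2.50 ± 0.841 CPM (SD, n = 3 and 3; edgeR adjusted p = 0.00862). It was again the 1 member of 8 tested to pass, against 0.505% of all genes. Without control replicate 4 the adjusted p was 0.0590, without senescent CM replicate 4 it was 0.0583, with endothelial marker scaling 0.180, and with replicate 1 included 0.487. Young conditioned medium gave 0.53 ± 0.24 (edgeR adjusted p = 0.860), and no member passed. In that comparison 0.0% of all genes passed in edgeR, 846 genes had an unadjusted p under 0.05, DESeq2 called 33 and a replicate block 6, no member among the 6.

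Direct contact gave the highest EFNA1 levels. It rose by 2.52 ± 0.21 with young MSCs (5.75-fold; edgeR adjusted p = 4.89e-05) and by 2.22 ± 0.21 with senescent MSCs (4.65-fold; adjusted p = 5.80e-05). Both calls held in each of 15 alternatives, with values from 1.70 to 2.63 and from 1.29 to 2.32. Replicate 1 of young co-culture, the library with the high ribosomal share, read 6.07 CPM, within the range of the others. That level rests on its TMM factor of 0.4589. It had 221 EFNA1 counts of 79312446, against 248 of 66320519 in senescent co-culture replicate 4, the lowest of the others. In the 5 stromal-rich replicate 1 libraries EFNA1 was 0.666 to 1.65 CPM, below every co-culture library.

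Against each other, the modes separated as well. EFNA1 was lower on matrix than in conditioned medium, with a log2 difference of -2.35 ± 0.18 (n = 6 and 6; edgeR adjusted p = 1.16e-06) and higher in co-culture than in conditioned medium by 1.31 ± 0.15 (adjusted p = 9.77e-06). From matrix to co-culture the difference was 3.65 ± 0.17, or 12.6-fold (adjusted p = 1.74e-11). Each of these held in every alternative run.

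**Figure D2:**
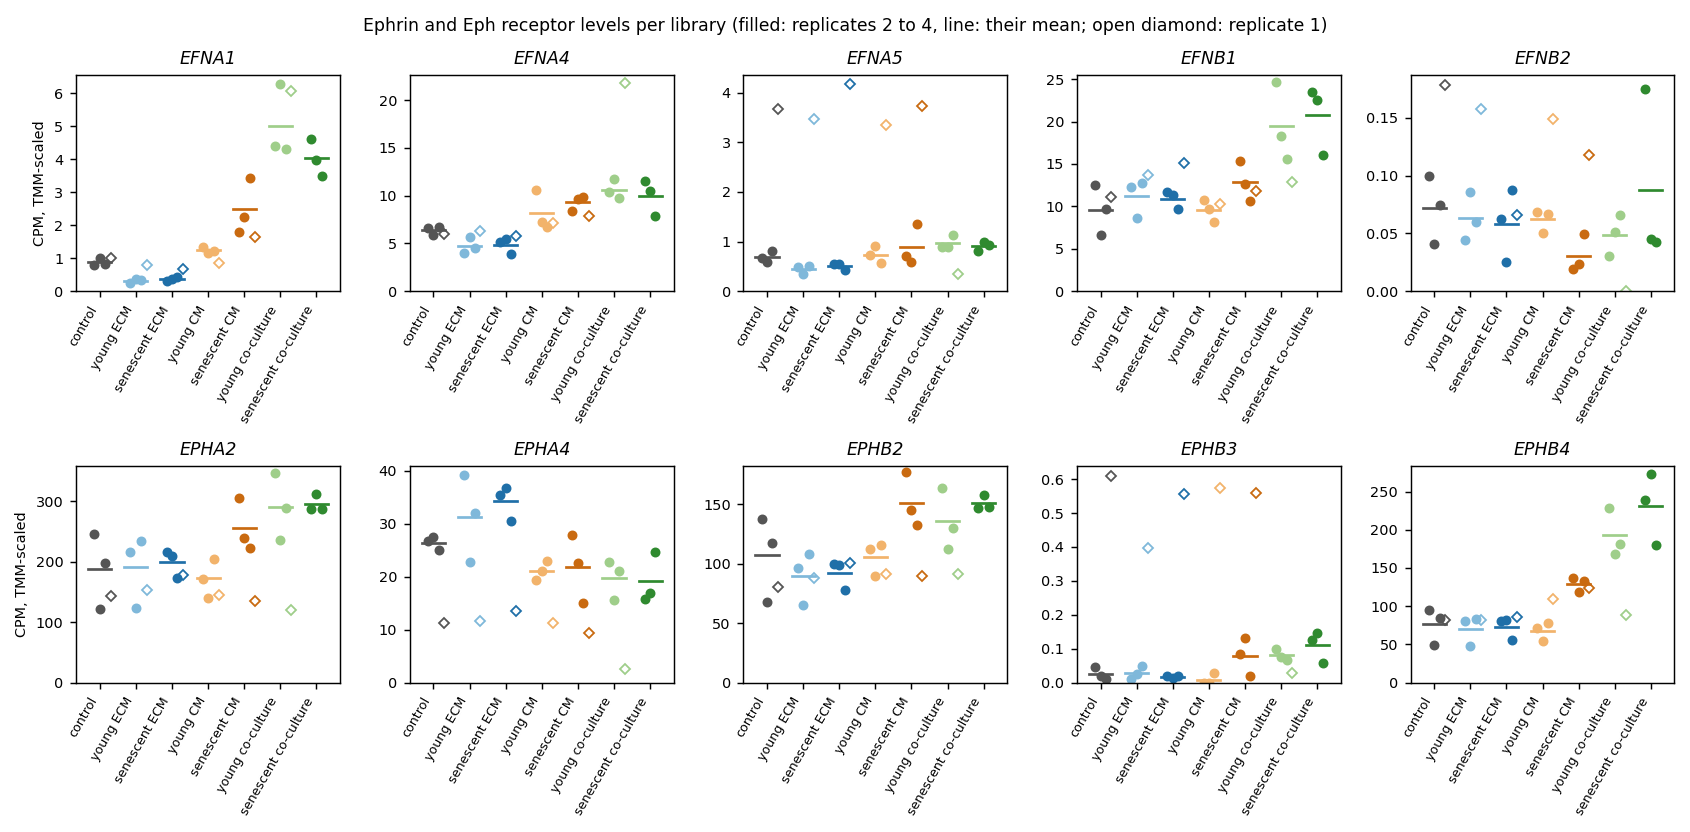
CPM of each of the 10 genes in every library, by group; filled points are replicates 2 to 4 with a line at their mean, and open diamonds are replicate 1, which senescent co-culture does not have. EFNA1 rises from 0.265 to 0.429 CPM on matrix to 3.49 to 6.27 CPM in co-culture, while the diamonds of EFNA5 and EPHB3 stand far above the filled points in 5 groups.

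EFNA4 (ENSG00000243364.8, chr1:155063731-155069553, plus strand) encodes ephrin-A4, another lipid-anchored ligand. Its exons overlap those of an annotated read-through transcript with EFNA3, so reads of the pair could not be fully separated. Control libraries read 6.61, 5.84 and 6.72 CPM, young co-culture 10.3, 11.8 and 9.74 CPM, and senescent co-culture 11.6, 10.5 and 7.85 CPM. All 6 co-culture libraries lay above the control libraries. EFNA4 rose by 0.74 ± 0.17 with young MSCs (edgeR adjusted p = 0.0171) and by 0.65 ± 0.17 with senescent MSCs (adjusted p = 0.0340), but the values turned to -0.06 and -0.26 when libraries were scaled to endothelial marker genes. Both calls were also lost without single libraries: for young MSCs the adjusted p was 0.0528 without young co-culture replicate 2, 0.0598 without replicate 3 and 0.0603 without control replicate 4. For senescent MSCs it was 0.181 and 0.155 without senescent co-culture replicates 2 and 3, and 0.0670 and 0.108 without control replicates 3 and 4. On matrix EFNA4 read 3.88 to 5.69 CPM and in conditioned medium 6.78 to 10.6 CPM. It was lower on matrix than in medium, with a log2 difference of -0.89 ± 0.14 (edgeR adjusted p = 0.000627) and higher in co-culture than on matrix by 1.07 ± 0.14 (adjusted p = 6.04e-06), and both calls held in every alternative.

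That scaling to 13 endothelial marker genes bears on all members. It moved the median of all genes by -0.57 and -0.53 (log2) on young and senescent matrix against control, by -0.36 in senescent medium, by -0.81 and -0.9 in young and senescent co-culture, by -0.36 for matrix against medium, and by -0.3 and -0.65 for co-culture against matrix and medium. On that scale EFNA1 still passed in both co-cultures (1.70 and 1.29; edgeR adjusted p = 0.000520 and 0.00153), while its call in senescent medium was lost (1.17, adjusted p = 0.180). Most genes passed on that scale in co-culture against control and against medium. Calls and counts of lower genes there therefore have to be read beside these medians. The part of endothelial marker levels in these results was not tested.

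EFNB1 (ENSG00000090776.6, chrX:68828997-68842147, plus strand) encodes the transmembrane ligand ephrin-B1, which binds EphB receptors. It read 12.5, 6.59 and 9.64 CPM in control, 24.6, 18.3 and 15.6 CPM in young co-culture, and 23.5, 22.6 and 16.03 CPM in senescent co-culture. Control and co-culture libraries did not overlap. EFNB1 rose by 1.03 ± 0.25 with young MSCs (edgeR adjusted p = 0.0245) and by 1.12 ± 0.25 with senescent MSCs (adjusted p = 0.0166). With endothelial marker scaling both values were 0.25 and the calls were lost (adjusted p = 0.306 and 0.295). The young call was also lost without young co-culture replicate 2 (adjusted p = 0.116) or control replicate 4 (0.0906), and the senescent call without senescent co-culture replicate 2 (0.0833) or 3 (0.0819) or control replicate 4 (0.0759). On matrix and in medium EFNB1 read 8.19 to 15.4 CPM, overlapping control. In the 5 stromal-rich libraries it was 10.3 to 15.1 CPM, below every co-culture library of replicates 2 to 4, while replicate 1 of young co-culture read 12.9 CPM.

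EFNA5 (ENSG00000184349.14, chr5:107376889-107670895, minus strand), ephrin-A5, was scarce, at 0.343 to 1.36 CPM in replicates 2 to 4. No comparison with control passed. It was lower on matrix (0.343 to 0.541 CPM) than in conditioned medium (0.577 to 1.36 CPM), with a log2 difference of -0.79 ± 0.22 (edgeR adjusted p = 0.0275), and no library of 1 mode overlapped the other. Co-culture (0.812 to 1.12 CPM) exceeded matrix by 0.96 ± 0.20 (adjusted p = 0.000963). Leaving out any of 6 libraries ended the matrix against medium call, with adjusted p from 0.0501 (without senescent ECM replicate 2) through 0.0511 and 0.0808 (young CM replicates 2 and 3), 0.0552 and 0.0683 (senescent ECM replicates 3 and 4) to 0.0847 (senescent CM replicate 4). EFNB2 (ENSG00000125266.8, chr13:106489731-106535662, minus strand), the arterial ligand ephrin-B2, had at most 14 counts in a library of replicates 2 to 4 and passed the filter in none of the fits on which the results rest. An annotated antisense gene overlaps its exons, so some of those counts may not be its own.

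EPHA2 (ENSG00000142627.13, chr1:16124337-16156087, minus strand), the main receptor of ephrin-A1 in endothelium, read 245, 121 and 198 CPM in control, 347, 235 and 288 CPM in young co-culture, and 287, 312 and 287 CPM in senescent co-culture. Senescent co-culture lay wholly above control, and young co-culture overlapped it. The differences were 0.63 ± 0.23 and 0.66 ± 0.23 on the log2 scale, and neither passed (edgeR adjusted p = 0.115 and 0.116). With a replicate block the young difference was 0.66 and passed (adjusted p = 0.0479). With endothelial marker scaling the values turned to -0.15 and -0.21. Control replicate 3, the lowest EPHA2 library, had 10.3% of its counts in ribosomal protein genes, against 6.94% and 7.56% in control replicates 2 and 4. Young ECM replicate 3 likewise read 123 CPM against 215 and 233 CPM, with a ribosomal share of 12.3% against 6.21% and 5.70%. EPHB2, EPHB4 and EFNB1 were also lowest in those 2 libraries within their groups, and the part of this share in the results was not tested.

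EPHB4 (ENSG00000196411.10, chr7:100802565-100827521, minus strand), the venous receptor of ephrin-B2, had the largest differences from control in co-culture among the 4 receptors tested. Exons of SLC12A9 on the opposite strand overlap it, and the strand setting of the counting is not given in the sources used here. Control read 94.9, 49.4 and 84.2 CPM, young co-culture 228, 169 and 181 CPM, and senescent co-culture 239, 272 and 180 CPM. The lowest co-culture library was above the highest control library. EPHB4 rose 2.54-fold with young MSCs (1.34 ± 0.24 on the log2 scale, edgeR adjusted p = 0.00529) and 3.04-fold with senescent MSCs (1.61 ± 0.25, adjusted p = 0.00172). Both calls held with endothelial marker scaling, at 0.57 and 0.74, and without each library of replicates 2 to 4 in turn. They were lost when replicate 1 was included (1.05 and 1.53; adjusted p = 0.270 and 0.185), where replicate 1 of young co-culture read 89.1 CPM. In the 5 stromal-rich libraries EPHB4 was 81.5 to 123 CPM, below every replicate 2 to 4 library of co-culture. Against conditioned medium, co-culture was higher by 1.13 ± 0.17 (adjusted p = 0.000212), and against matrix by 1.53 ± 0.18 (adjusted p = 1.64e-06). Both held in every alternative. Senescent medium gave 136, 119 and 133 CPM, above all 3 control libraries, a difference of 0.77 ± 0.25 that did not pass (adjusted p = 0.345).

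EPHB2 (ENSG00000133216.17, chr1:22710839-22921500, plus strand), an ephrin-B receptor, read 138, 67.9 and 118 CPM in control and 113 to 164 CPM in co-culture. Neither co-culture difference from control passed: 0.34 ± 0.23 with young and 0.49 ± 0.23 with senescent MSCs (edgeR adjusted p = 0.423 and 0.255). Under endothelial marker scaling EPHB2 gave -0.44 with young MSCs, which passed (adjusted p = 0.0416), and -0.37 with senescent MSCs, which did not (0.0675). The medians of all genes on that scale were lower, at -0.81 and -0.9. It was higher in co-culture than on matrix (65.0 to 108 CPM) by 0.63 ± 0.16 (adjusted p = 0.00607), a call kept in every alternative. Matrix against medium gave -0.50 ± 0.17 for EPHB2 (adjusted p = 0.0754) and -0.41 ± 0.18 for EPHB4 (adjusted p = 0.159), and neither passed. EPHB2 was called there in 6 alternatives, among them DESeq2 (adjusted p = 0.0461) and endothelial marker scaling (-0.86, adjusted p = 0.000329), and EPHB4 with that scaling (-0.79, adjusted p = 0.000801). The median of all genes was -0.36 with that scaling. EPHB3 (ENSG00000182580.3, chr3:184561784-184582409, plus strand), another ephrin-B receptor, passed the count filter, through its higher libraries, in 1 of the fits on which the results rest, that of all 7 groups. Its levels were 0.0563 to 0.147 CPM in co-culture, 0.00 to 0.131 CPM in conditioned medium and at most 0.0496 CPM on matrix. It passed for co-culture against matrix (1.96 ± 0.51, edgeR adjusted p = 0.00634) and against medium (1.72 ± 0.55, adjusted p = 0.0363), but the filter selected it for its high libraries and counts were 0 to 13, so these calls are no support for a difference. The call against medium was lost in 10 of 19 alternatives, and with replicate 1 included both values turned to -0.62 and -0.96.

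EPHA4 (ENSG00000116106.12, chr2:221418027-221574202, minus strand), which binds ephrins of both classes, went the other way. An antisense gene overlaps its exons. It read 26.7, 27.6 and 25.1 CPM in control, 39.1, 22.8 and 32.1 CPM on young matrix and 35.5, 36.8 and 30.5 CPM on senescent matrix. Conditioned medium gave 14.96 to 27.9 CPM and co-culture 15.5 to 24.7 CPM. All 6 co-culture libraries were below the control libraries, yet the differences of -0.41 ± 0.19 and -0.46 ± 0.19 did not pass (edgeR adjusted p = 0.218 and 0.195). With endothelial marker scaling they were -1.24 and -1.39 and passed (adjusted p = 0.000714 and 0.000390). The medians of all genes on that scale were -0.81 and -0.9, and most genes passed. EPHA4 was higher on matrix than in medium by 0.59 ± 0.15 (adjusted p = 0.0161), a call lost without young ECM replicate 2 (0.50, adjusted p = 0.0545) and with endothelial marker scaling (0.23, adjusted p = 0.252). With that scaling the median of all genes was -0.36. Co-culture against matrix gave -0.78 ± 0.16 for EPHA4 (adjusted p = 0.000847), a fall, and this was lost in 1 of 20 alternatives, the one with replicate 1 included (-0.69, adjusted p = 0.253).

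**Figure D3:**
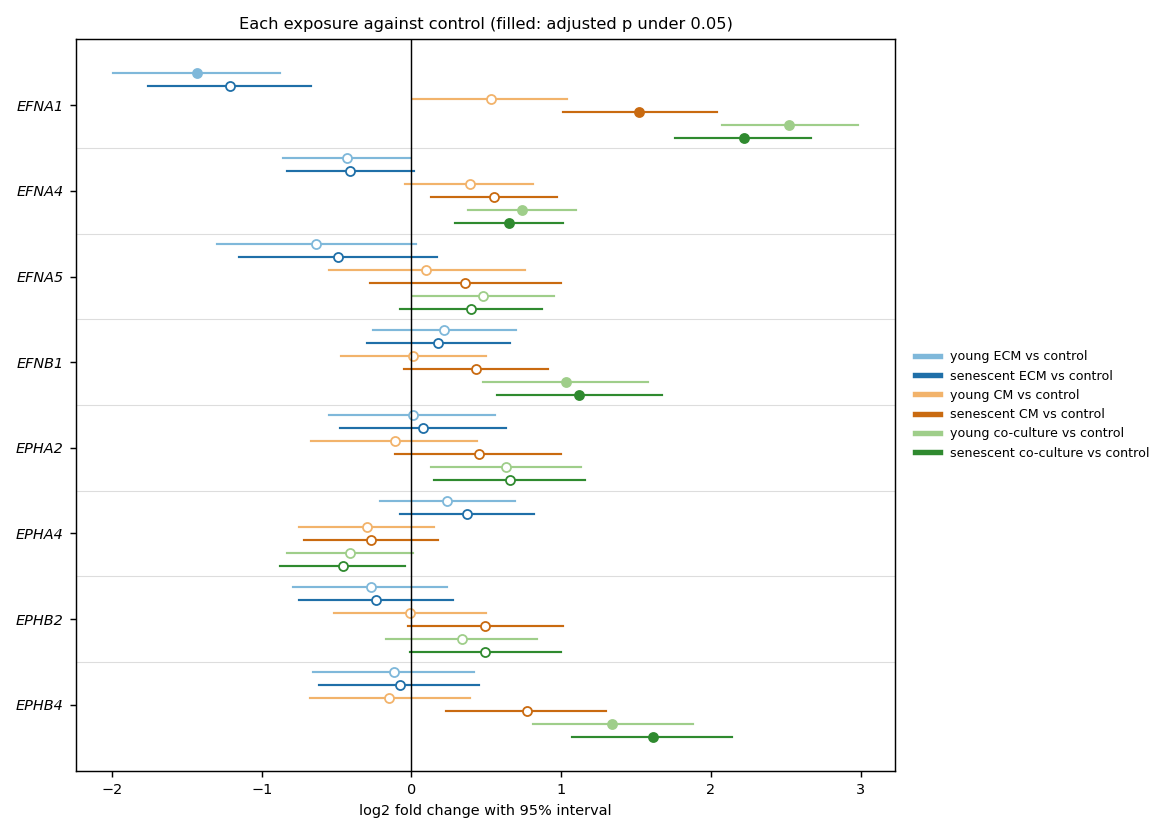
Log2 fold changes of 8 tested members in each exposure against control (x axis), with 95% intervals; filled points have an edgeR adjusted p under 0.05. EFNA1 spans from -1.43 on young matrix to 2.52 in young co-culture; the filled points of EFNA4 in co-culture turn to -0.06 and -0.26 with endothelial marker scaling, and the open points of EPHA2, EPHB2 and EFNA5 in co-culture also turn below 0.

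Counted over the members, 4 of 8 tested passed in young co-culture against control, all higher, where 9.68% of all genes passed. The same 4, EFNA1, EFNA4, EFNB1 and EPHB4, passed in senescent co-culture, where 8.05% passed. None of the 4 other family genes tested passed in either comparison. Both comparisons share the control libraries. Members were picked with earlier results of these data known, so their shares and medians are description only. EFNA4 turned below 0 in both under endothelial marker scaling, as given above. The median log2 fold change of the 8 was 0.69 and 0.65, against 0.01 and 0.02 over all genes tested. Between matrix and medium, 4 of 8 passed, EFNA1, EFNA4 and EFNA5 lower on matrix and EPHA4 higher, against 11.8% of all genes. With endothelial marker scaling 6 passed, all lower on matrix (EFNA1, EFNA4, EFNA5, EPHA2, EPHB2 and EPHB4), and EPHA4 did not. On that scale the median of all genes was -0.36, and a larger share of all genes than 11.8% passed. Between co-culture and matrix, the 8 members tested in every fit all passed, 7 higher in co-culture and EPHA4 lower, where 26.9% of all genes passed. EPHA2 had the highest adjusted p of these 8 (0.56 ± 0.17, edgeR adjusted p = 0.0204) and lost its call without young co-culture replicate 2 (0.0616), without senescent ECM replicate 4 (0.0551) and with endothelial marker scaling (0.0627). Between co-culture and medium, EFNA1, EFNB1 (0.82 ± 0.16, adjusted p = 0.00226) and EPHB4 were higher, where 17.0% of all genes passed. The EFNB1 call there was lost with endothelial marker scaling (0.19, adjusted p = 0.219), while EFNA1 (0.67) and EPHB4 (0.50) kept theirs. On that scale EPHA4 (-0.81), EPHB2 (-0.49), EFNA5 (-0.48) and EFNA4 (-0.43) passed as lower in co-culture (edgeR adjusted p from 0.000162 to 0.0481). The median of all genes there was -0.65, below EPHB2, EFNA5 and EFNA4, and most genes passed, against 17.0% without that scaling.

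The 4 genes that passed in both co-cultures are shown with the RefSeq promoter sequence (GRCh38.p14) just before the start of each, because these were the members called against control. Capitals mark matches to GGGCGG (the GC box bound by SP factors) on either strand and to TGGGAA (the RBPJ core of Notch targets) on either strand. Each sequence reads 5′ to 3′ on the strand of its gene and stops at the first annotated exon base. For EFNA1 the whole window lies within an annotated exon, so only the 30 bases with the most matches are given. They lie at chr1:155127796-155127825 (plus), and the others at chr1:155063490-155063730 (plus), chrX:68828771-68828996 (plus) and chr7:100827524-100827773 (minus).
EFNA1: cgcgcgccGGGCGGggcgaGGGCGGGGCGG
EFNA4: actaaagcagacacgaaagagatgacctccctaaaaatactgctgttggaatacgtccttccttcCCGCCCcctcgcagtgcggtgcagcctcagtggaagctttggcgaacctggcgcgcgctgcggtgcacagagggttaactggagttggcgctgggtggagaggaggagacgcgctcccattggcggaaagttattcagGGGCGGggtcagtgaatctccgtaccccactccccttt
EFNB1: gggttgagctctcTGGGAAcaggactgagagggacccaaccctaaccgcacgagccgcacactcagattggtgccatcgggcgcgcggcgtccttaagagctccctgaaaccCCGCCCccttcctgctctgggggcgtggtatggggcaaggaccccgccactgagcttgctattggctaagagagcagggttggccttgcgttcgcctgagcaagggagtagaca
EPHB4: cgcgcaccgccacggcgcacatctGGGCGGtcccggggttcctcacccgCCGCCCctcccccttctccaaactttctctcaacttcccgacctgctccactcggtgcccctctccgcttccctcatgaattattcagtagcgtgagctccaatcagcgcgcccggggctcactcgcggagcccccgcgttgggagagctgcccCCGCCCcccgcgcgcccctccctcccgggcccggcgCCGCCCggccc
In the full windows of 250 bases the GC box occurred 5 times in EFNA1, 2 times in EFNA4, 1 time in EFNB1 and 4 times in EPHB4. All 10 members had at least 1 such match, as did 42.6% of 34788 RefSeq windows of the same length. The RBPJ core was found once, in EFNB1, against 20.8% of windows, and the TEAD core GGAATG once, in EPHA2, against 11.9%. Neither TGANTCA (AP-1) nor CACGTG (E-box) occurred in any member window, against 6.6% and 6.3% of windows. A match is a run of letters and not evidence of binding.

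Whether senescence of the MSCs changed the family was asked within each mode, and no member passed. On matrix, 0.0% of all genes passed in edgeR (141 at an unadjusted p under 0.05; DESeq2 called 0), and EFNA1 differed by 0.22 with a 95% interval from -0.36 to 0.79. EPHB4 differed there by 0.04 (-0.50 to 0.57). In co-culture, where 0.395% of all genes passed, EFNA1 was -0.31 (-0.73 to 0.11) and EPHB4 0.26 (-0.26 to 0.78). Conditioned medium gave the widest gaps, with 0.0167% of all genes passing (3 genes, and 7 with a replicate block, no member among them). EFNA1 was higher in all 3 senescent CM libraries than in any young CM library, by 1.00 (0.49 to 1.51), and EPHB4 by 0.91 (0.37 to 1.45), but their edgeR adjusted p values were 0.325 and 0.573. EPHA2 read 305.5, 239.5 and 223 CPM with senescent against 172, 140 and 204 CPM with young medium, a difference of 0.56 (0.00 to 1.11). EPHB2 read 177, 145 and 133 CPM against 112, 89.7 and 115.5 CPM, a difference of 0.50 (-0.01 to 1.02). Neither gene overlapped between those groups, and neither passed (both edgeR adjusted p = 0.765). DESeq2 called EFNA1 there (adjusted p = 0.0376), and testing without a low-count filter called EPHB4 (adjusted p = 0.00216). With endothelial marker scaling EFNA1 gave 0.71, EPHB4 0.61, EPHA2 0.24 and EPHB2 0.19, and no member passed. The median of all genes was -0.34 on that scale.

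The size of the senescence difference was compared between modes by interaction terms. Between medium and matrix it differed by 0.78 ± 0.36 for EFNA1 and 0.87 ± 0.36 for EPHB4, and no member passed. There 0.0% of all genes passed in edgeR, with 384 at an unadjusted p under 0.05 and 3 called by DESeq2. Between co-culture and medium EFNA1 differed by -1.31 ± 0.31 (edgeR adjusted p = 0.133), with 0.103% of all genes passing. DESeq2 (adjusted p = 0.0239) and the fit without a low-count filter (0.0359) called it. Between co-culture and matrix no member passed, with 0.0487% of all genes passing, and EFNA1 gave -0.51 ± 0.33.

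**Figure D4:**
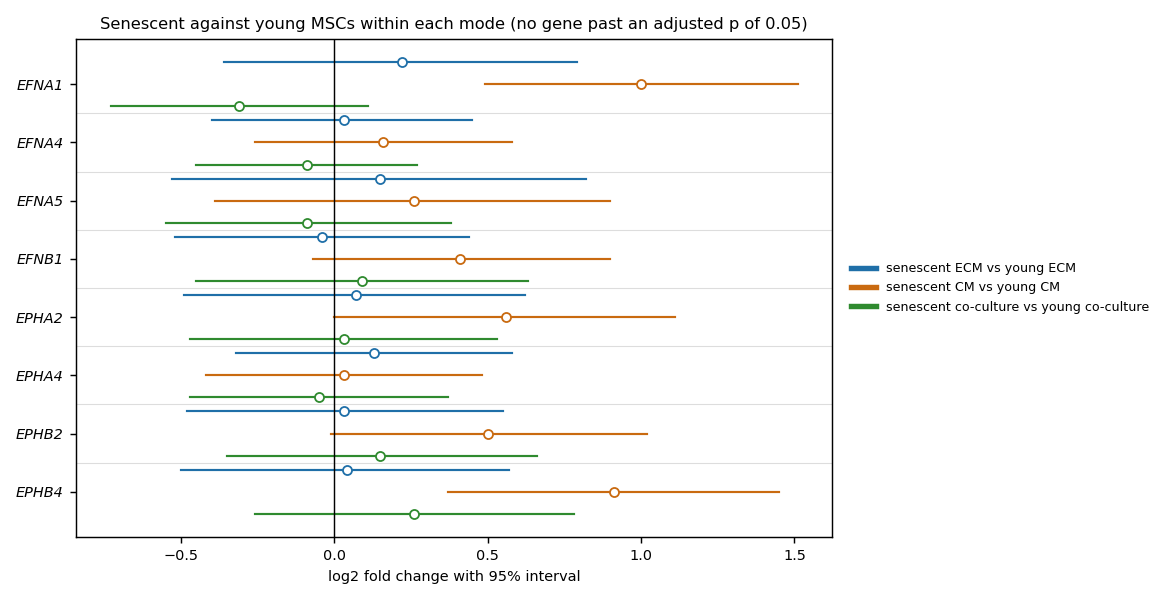
Log2 fold changes of senescent over young MSC exposure (x axis) for 8 members on matrix, in medium and in co-culture, with 95% intervals; no point has an edgeR adjusted p under 0.05. In medium the intervals of EFNA1 (0.49 to 1.51) and EPHB4 (0.37 to 1.45) lie above 0, while those on matrix and in co-culture span it.

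Of the 12 other ephrin and Eph genes, 4 were tested, and none passed against control in any exposure. With endothelial marker scaling 2 were lower in each co-culture, where most genes passed and the medians of all genes were -0.81 and -0.9. Without that scaling EFNA2, an ephrin-A ligand, was higher in co-culture than on matrix by 1.48 ± 0.35 (edgeR adjusted p = 0.00301), where 26.9% of all genes passed. This was the 1 call among the 4 genes in 12 comparisons. EFNA2 was named after its values were seen, and its levels were 0.0695 to 0.177 CPM on matrix and 0.237 to 0.366 CPM in co-culture.

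Genes that carry Eph and ephrin signals inside the cell, or end them, were taken as a list of 43, of which 40 were tested. In young co-culture 3 rose and 1 fell, and in senescent co-culture 4 rose and none fell, near the 9.68% and 8.05% of all genes that passed, with list medians of 0.06 and 0.11 against 0.01 and 0.02 over all genes; with endothelial marker scaling none rose, 33 and 35 fell, and the medians were -0.74 and -0.79 against -0.81 and -0.9. PTPRB, an endothelial receptor phosphatase, rose by 0.92 ± 0.15 with young MSCs (87.15 ± 13.05 against 46.4 ± 3.12 CPM in control; edgeR adjusted p = 0.00295) and by 0.80 ± 0.15 with senescent MSCs (adjusted p = 0.00627), values that became 0.08 and -0.13 with that scaling. ABL2, a cytoplasmic tyrosine kinase that acts on the actin skeleton, fell by 0.74 ± 0.17 on the log2 scale in young co-culture (adjusted p = 0.0170). Its call was lost without young co-culture replicate 3 (0.0571) or 4 (0.0637) or control replicate 4 (0.0652). KALRN, which acts downstream of EphB receptors, rose by 0.65 ± 0.16 and 0.67 ± 0.17 (adjusted p = 0.0297 and 0.0272), with -0.16 and -0.23 under endothelial marker scaling. GRB10, an adaptor that binds tyrosine kinases, rose by 0.58 ± 0.15 in senescent co-culture (adjusted p = 0.0418), with -0.32 under that scaling. The KALRN call with young MSCs was lost without young co-culture replicate 2 (0.144) or 4 (0.0849) or control replicate 3 (0.0563) or 4 (0.115). With senescent MSCs, leaving out any of senescent co-culture replicates 2, 3 and 4 or control replicates 3 and 4 ended the calls of KALRN (adjusted p from 0.0595 to 0.136) and of GRB10 (0.0787 to 0.181).

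On matrix the 1 partner that passed was NGEF (ephexin-1), which EphA receptors activate. NGEF rose from 2.80 ± 0.186 CPM in control to 7.001 ± 0.841 CPM when seeded on young matrix and to 6.89 ± 0.597 CPM when the matrix was senescent, by 1.32 ± 0.20 and 1.29 ± 0.20 (edgeR adjusted p = 0.00650 and 0.00868). The senescent call was lost without senescent ECM replicate 3 (0.102) or control replicate 4 (0.0667) and with endothelial marker scaling (0.78, adjusted p = 0.0582). Against medium NGEF was higher on matrix by 1.99 ± 0.15 (adjusted p = 4.67e-07), and co-culture was lower than matrix, at -1.68 ± 0.13 (adjusted p = 1.24e-08). NGEF was thus highest on matrix, the mode in which EFNA1 was lowest. In all, 4 of 40 partners were higher on matrix than in medium and none lower, no larger a share than the 11.8% of all genes that passed, against 1 higher and 6 lower with endothelial marker scaling. SDCBP (syntenin-1), a scaffold that binds ephrin-B tails, was among the 4 (0.60 ± 0.10, adjusted p = 0.000772; 0.25 with that scaling, adjusted p = 0.193). Between co-culture and matrix 4 of 40 were higher in co-culture and 6 lower, near the 26.9% of all genes that passed, and with that scaling 1 and 13. RGS3, which links ephrin-B to G proteins, was higher (0.57 ± 0.08, adjusted p = 1.84e-05) and the kinase SRC lower (-0.69 ± 0.15, adjusted p = 0.00204). Between co-culture and medium 9 of 40 were higher and 1 lower, where 17.0% of all genes passed, against none and 27 with endothelial marker scaling. ADAM10, a protease that sheds ephrins, was among the 9 (0.40 ± 0.11, adjusted p = 0.0209), but turned to -0.25 with that scaling. Its call was lost without young CM replicate 2 (0.0582) or 3 (0.0532), senescent CM replicate 3 (0.0505), young co-culture replicate 2 (0.0531) or senescent co-culture replicate 4 (0.0518). In conditioned medium against control no partner passed.

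Arterial and venous genes were read beside EFNB2 and EPHB4. Of 15 arterial genes apart from EFNB2, 11 were tested, and 3 rose in young and 4 in senescent co-culture, none falling, where 9.68% and 8.05% of all genes passed; with endothelial marker scaling 2 rose and 3 fell, and 1 rose and 3 fell. ACVRL1, the endothelial receptor of BMP9, rose by 1.07 ± 0.15 and 1.27 ± 0.15 (edgeR adjusted p = 0.000893 and 0.000234), with 0.27 and 0.37 under that scaling. The young ACVRL1 call was lost there (adjusted p = 0.0752). SOX7, an endothelial transcription factor, rose by 1.39 ± 0.29 and 1.23 ± 0.29 (adjusted p = 0.0115 and 0.0206). With endothelial marker scaling its young call was kept and its senescent call was lost (0.37, adjusted p = 0.144). The young SOX7 call was lost without young co-culture replicate 2 (0.0542), and the senescent call without senescent co-culture replicate 2 (0.0599), 3 (0.0704) or 4 (0.0797) or control replicate 4 (0.0657). The Notch target HEY1 rose by 0.96 ± 0.15 with senescent MSCs (adjusted p = 0.00267; 0.03 with endothelial marker scaling). Of 7 venous genes apart from EPHB4, 3 were tested in these comparisons and 2 rose in each, beside the same shares of all genes, while with that scaling none rose and 1 fell. TEK, the angiopoietin receptor and itself one of the 13 endothelial markers, rose by 0.77 ± 0.13 and 0.99 ± 0.13 (adjusted p = 0.00358 and 0.000705), with -0.05 and 0.06 under that scaling. NRP2, a VEGF-C co-receptor, rose by 1.04 ± 0.24 and 0.92 ± 0.24 (adjusted p = 0.0180 and 0.0350), with 0.26 and 0.04 under it. The young NRP2 call was lost without young co-culture replicate 2 (0.0889) or control replicate 4 (0.0633), and the senescent call without any of senescent co-culture replicates 2 to 4 or control replicates 3 and 4 (adjusted p from 0.0534 to 0.155). Genes of both lists were thus higher in co-culture beside an endothelial marker sum that was also higher there. EPHB4 kept its calls under endothelial marker scaling, as did SOX7 with young and ACVRL1 with senescent MSCs.

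Likeness of pattern was described by Pearson's r of log2 CPM over the 21 libraries, against 9655 or 9654 protein-coding genes with a mean of at least 5 CPM over these libraries. These libraries share their groups and scaling, so r is a description only. EFNA1 was most like EDN1, which encodes endothelin-1 (r = 0.981; 47.2 to 340 CPM), followed by TSPAN15 (0.977) and DDIT4 (0.977). EPHA2 was most like HDAC7 (0.986), EPHB4 like BMP1 (0.979) and EPHB2 like MVB12B (0.965). EFNA4 followed GDF15 (0.962), PGF (0.958) and the keratin KRT8 (0.953), a member of the epithelial marker list. EFNB1 was most like LIMK2 (0.950), EPHA4 like SYNE1 (0.958), EFNA5 like PDGFB (0.843) and EPHB3 like the partner RGS3 (0.848). Among members, EFNA1 and EFNA4 had r = 0.92, EPHA2 and EPHB2 0.91, EFNB1 and EPHB4 0.91, and EFNA1 and EPHA4 -0.82.

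In replicate 1, 3 members stood apart. EFNA5 stood at 3.35 to 4.17 CPM in the 5 stromal-rich libraries, above the 1.36 CPM of the highest other library. EPHB3 read 0.398 to 0.609 CPM there, against at most 0.147 CPM elsewhere. EPHA4 read 9.29 to 13.4 CPM, below all 21 libraries of replicates 2 to 4 (14.96 to 39.1 CPM). COL1A1, the main chain of collagen I, was 1887 to 5262 CPM in those 5 libraries, 47.3 to 169 CPM in replicates 2 to 4 of co-culture and 4.28 to 10.3 CPM in the other 15 libraries. In co-culture, EFNA5 and EPHB3 stayed far below their levels in the stromal-rich libraries, as did COL1A1. The part of stromal RNA in their co-culture levels was not tested. Replicate 1 of young co-culture departed in its own way, with EFNA4 at 21.8 CPM, EPHA4 at 2.61 CPM and EPHA2 at 119 CPM, and its epithelial markers summed to 18150 CPM. These levels rest on its low TMM factor of 0.4589, and the part of that factor in them was not tested. With replicate 1 included, EFNA5 and EPHB3 turned from higher to lower in co-culture against matrix (-0.59 and -0.62).

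**Figure D5:**
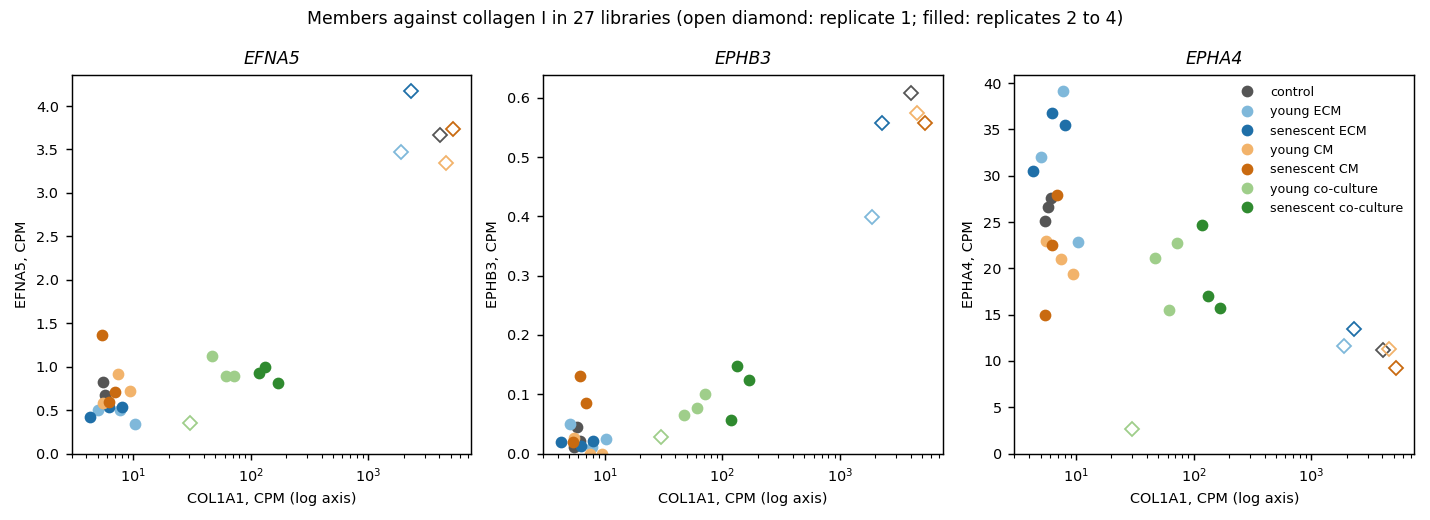
EFNA5, EPHB3 and EPHA4 (y axes, CPM) against COL1A1 (x axis, CPM, log scale) in 27 libraries, coloured by group; open diamonds are replicate 1 and filled points replicates 2 to 4. The 5 diamonds with 1887 to 5262 CPM of COL1A1 hold the highest EFNA5 and EPHB3 levels and EPHA4 levels of 9.29 to 13.4 CPM.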

How the data were processed

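Poly(A) RNA of 27 EA.hy926 libraries was sequenced with a kit that marks strand, per the labels' protocols. Per the submitters' processing notes, the authors used HISAT2 2.2.1, featureCounts 2.0.1 and GRCh38, and the deposited values are raw read counts per gene. For the annotation release and the strand setting of the counting, the value is not given in the sources used here. Of 60648 entries, 44 Y copies of pseudoautosomal genes (109832 counts) were left out. Symbols came from the reference tables (60462 of 60604 entries), and coordinates and exon lengths from GENCODE 29.

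Levels are CPM, scaled by TMM over 27 libraries. Differences were tested with edgeR 4.0.16 (quasi-likelihood test, R 4.3.3, limma 3.58.1), 2-sided, after a low-count filter (filterByExpr, minimum 10), with Benjamini-Hochberg adjustment over all genes tested and a threshold of 0.05. Standard errors come from the F statistic, and 95% intervals from them. The fits used replicates 2 to 4: control, matrix and medium (15 libraries, 18015 genes), control and co-culture (9 libraries, 17729 genes) and all 7 groups (21 libraries, 18492 genes). Scripts were tested on simulated data. Alternatives were DESeq2 1.42.0, other scalings, no filter, other sets of groups, replicate 1 included, a replicate block and each library left out. The replicate numbers were taken as pairing samples where every same-numbered correlation of deviations exceeded 0.1, which held for 6 of 21 pairs of groups (control with young ECM, young CM and young co-culture; young with senescent CM; young ECM with young co-culture; senescent ECM with senescent CM). The tests on which the results rest used group means without a replicate block, for these pairs too, and the block was run as an alternative. No 2 libraries of a group were alike within sampling noise (lowest chi-square per degree of freedom 19.8).

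The members and gene lists were chosen with earlier results of these data known. All members were named. Of the other lists, a gene was named where it passed the threshold, averaged at least 5 CPM in 1 group and did not overlap, up to 3 per list and comparison. For each member called, the 3 genes with the highest correlation were named (log2 CPM, prior count 2).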

Additional observations from a re-analysis of the deposited data

Results flagged for a closer look

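Of 60 sets of 4 libraries (a member in a group with replicate 1), 13 had a library farther from the others than Dixon's 95% critical value for 4 allows, 10 of them for replicate 1; chance flags about 1 in 20. EFNA5 replicate 1 was high in control (3.663 CPM), young ECM (3.47), senescent ECM (4.171) and young CM (3.347). EPHB3 replicate 1 was high in control (0.6087 CPM), young ECM (0.3983), senescent ECM (0.5568) and young CM (0.5738). EPHA4 replicate 1 was low in control, at 11.17 CPM against 25.12 in the nearest library. EFNA4 was high in young co-culture replicate 1 (21.79 CPM against 11.78), a library with a TMM factor of 0.4589. Outside replicate 1, EFNA4 was high in young CM replicate 2 (10.63 CPM against 7.288), EPHB2 low in senescent ECM replicate 4 (77.62 against 98.87) and EPHB4 low in young ECM replicate 3 (48.14 against 80.43). Stromal marker sums of 5874 to 10440 CPM were measured in 5 of the replicate 1 libraries, and their part in these values was not tested.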

How the results depend on the processing

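Of 124 member tests 27 were called, and 11 kept the call in every alternative: EFNA1 in both co-cultures against control and in the 3 comparisons between modes, EFNA4 between matrix and both other modes, EFNB1 and EPHB2 between co-culture and matrix, and EPHB4 between co-culture and both other modes. Of 2105 alternative values, 9 reversed a direction where the main or the alternative test was called, 70 fell below the threshold and 38 passed it. Changes of sign where neither test was called were not counted, such as those of EPHA2 in both co-cultures with endothelial marker scaling.

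With endothelial marker scaling, EFNA4 turned to -0.06 in young and -0.26 in senescent co-culture against control and to -0.43 in co-culture against medium, EPHB2 to -0.44 in young co-culture and -0.49 against medium, and EFNA5 to -0.48 against medium. With replicate 1 included, co-culture against matrix gave -0.59 for EFNA5 and -0.62 for EPHB3, and against medium -0.96 for EPHB3. The biological coefficient of variation was 0.189 to 0.216 in replicates 2 to 4 and 0.470 to 0.527 with replicate 1.

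Counts of members called moved as follows, and the cause was not tested. For young ECM against control (1) they were 0 with all replicates, 0 with a replicate block and all replicates, 0 with only the groups compared, and 5 with endothelial scaling. For senescent ECM (0) they were 1 with a replicate block, DESeq2, no low-count filter or all 7 groups in 1 fit, and 3 with endothelial scaling. For senescent CM (1) they were 0 with all replicates, endothelial scaling or only the groups compared, and 2 with no filter. For senescent against young CM (0), and for the senescence difference in co-culture against that in medium (0), DESeq2 and no filter gave 1. Both co-cultures against control (4) gave 1 with all replicates, with or without a replicate block. With all replicates, matrix against medium (4) gave 2 and co-culture against matrix (9) gave 5. Leaving out 1 library gave 0 to 1 members for young ECM and senescent CM, 2 to 5 for young and 2 to 6 for senescent co-culture, 3 to 4 for matrix against medium and for co-culture against medium, and 8 to 9 for co-culture against matrix; it gave 0 in all other comparisons.

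A replicate block also called EPHA2 in senescent co-culture against control (0.72, adjusted p = 0.0366) and in co-culture against medium (0.45, adjusted p = 0.0260), EFNA1 on senescent ECM (-1.22, adjusted p = 0.0221) and EPHB2 in matrix against medium (-0.50, adjusted p = 0.0232), where the numbers did not pair every group compared. It changed no other member's call beside EPHA2 in young co-culture, given in the text.

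Of 31 calls named from the other lists, 4 held in every alternative (NGEF, RGS3, ACVRL1 and EFNA2 in co-culture against matrix). Of their 537 alternative values 99 missed the threshold and 6 turned, all with endothelial scaling: KALRN to -0.16 and -0.23 in young and senescent co-culture, TEK to -0.05 in young, PTPRB to -0.13 and GRB10 to -0.32 in senescent co-culture, and ADAM10 to -0.25 in co-culture against medium.

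Genes called for young ECM against control were 117, and 1 with all replicates, 11 with only the groups compared, 235 with all 7 groups, 321 with a replicate block, 346 with DESeq2, 363 with no filter and 3241 with endothelial scaling. For senescent ECM 54 became 0, 31, 146, 200, 234, 290 and 805 under the same settings. For senescent CM 91 became 0, 9, 206, 230, 277 and 284 under the first 6, and 75 with endothelial scaling. For young co-culture 1716 became 45 with all replicates, 954 with only the groups compared and 12352 with endothelial scaling; for senescent co-culture 1428 became 30, 1044 and 13833. Co-culture against medium called 3145 genes, and 323 with all replicates, 5058 with a replicate block and 13084 with endothelial scaling; co-culture against matrix called 4975, and 1840 with all replicates; matrix against medium called 2127, and 693 with all replicates, 3320 with a replicate block and 4121 with endothelial scaling. Senescent against young co-culture called 70, and 0 with all replicates, 38 with endothelial scaling, 161 with DESeq2 and 249 with no filter; senescent against young CM called 3, and 49 with DESeq2 and 148 with no filter.

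EFNB2, EPHB3 and EFNA5 rest on few counts, at most 14, 13 and 137 per library of replicates 2 to 4.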
